A study of Mus musculus with 12 samples.

Results

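The genes described here encode the corticosteroid receptors and the stress axis around them. They are the receptor genes Nr3c1 and Nr3c2, the corticosterone-regenerating enzyme Hsd11b1, the corticotropin-releasing hormone (CRH) genes Crh, Crhr1 and Crhbp, and the glucocorticoid-responsive genes Fkbp5, Tsc22d3, Sgk1 and Per1. They were taken by gene symbol, with no threshold on their values, and make up 10 of the 52634 genes in the count table. Their RNA was measured by RNA sequencing in dorsal hippocampus of mice at postnatal day 7. SERTPyramid mice carry a conditional deletion of the serotonin transporter gene Slc6a4 in pyramidal neurons, and SERTfl/fl mice carry the floxed gene without that deletion and served as controls. No other treatment is named for either genotype, and neither the driver of the deletion nor the mouse strain is stated in the labels. Each genotype had 3 libraries labelled female and 3 labelled male, and each of the 12 libraries came from tissue pooled from 4 mice. The labels do not say whether pools shared litters, and the p-values reflect variation among these pools alone.

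Corticosterone, the main glucocorticoid of mice, acts in the hippocampus through the mineralocorticoid receptor, which binds it with high affinity, and the glucocorticoid receptor, which binds it with lower affinity and is engaged when hormone levels are high. Both receptors are held by heat shock protein chaperones, move to the nucleus when bound, and switch on genes such as Fkbp5, whose product in turn dampens the receptor. In the hippocampus CRH is made mainly by interneurons rather than by the hypothalamic neurons that drive the pituitary, and early postnatal life in rodents includes a period of low corticosterone responses to stress.

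Libraries had 18747249 to 25522347 counts, and levels are given in counts per-million (CPM) or, to compare genes, in CPM per kilobase of exon (RPKM). Slc6a4 had 0 to 17 counts per library in both genotypes together, so whole-tissue RNA gives little check of the deletion. Hippocampal markers were abundant: the pyramidal neuron gene Neurod6 averaged 144 RPKM and the dentate granule gene Prox1 24.8 RPKM. Of the hypothalamus and thalamus markers, the peptide genes Avp and Oxt had 1 and 3 counts over all 12 libraries. The others had more: Trh 83, Agrp 81, Hcrt 27, Gbx2 13 and Pmch 12 counts, and Tcf7l2 1654, at 86 to 166 per library. In 10 of 12 libraries, all but SERTfl/fl replicate 1 of either labelled sex, the label did not match Xist, an X-linked RNA of female cells, and Y-linked transcripts. Xist had 13 to 46 counts in SERTPyramid libraries labelled female and 16794 to 21713 in those labelled male. SERTfl/fl libraries had 20646, 59 and 527 labelled female and 14, 22750 and 17572 labelled male, so both SERTfl/fl groups were mixed. Groups are therefore called labelled female and labelled male. Choroid plexus markers, none of them at 0, varied between libraries: their summed level was 28.5 to 1271 CPM in SERTPyramid and 973 to 1306 in SERTfl/fl libraries labelled female, and 466 to 2502 in SERTPyramid and 1193 to 1840 in SERTfl/fl libraries labelled male.

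The deletion was accompanied by no called difference in any of the 10 genes. Averaged over labelled sexes, SERTPyramid over SERTfl/fl fold changes lay between 0.932 for Fkbp5 and 1.09 for Crhr1, and their 95% intervals together spanned 0.874 to 1.25. edgeR's quasi-likelihood test with Benjamini-Hochberg adjustment over 17631 genes called 0 of the 10 genes and 0% of all genes in the mean of labelled sexes, and DESeq2 also called 0 genes. At an unadjusted p below 0.05 the mean held 1 of the 10 genes, Fkbp5, against 1145 genes or 6.49% of all genes. Of the 10 genes, 5 had fold changes above 1, against 49.3% of all genes, and the median absolute log2 fold change was 0.06 for these genes and 0.06 for all genes. In bulk tissue, fewer cells of a type and less RNA per cell cannot be told apart.

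**Figure D1:**
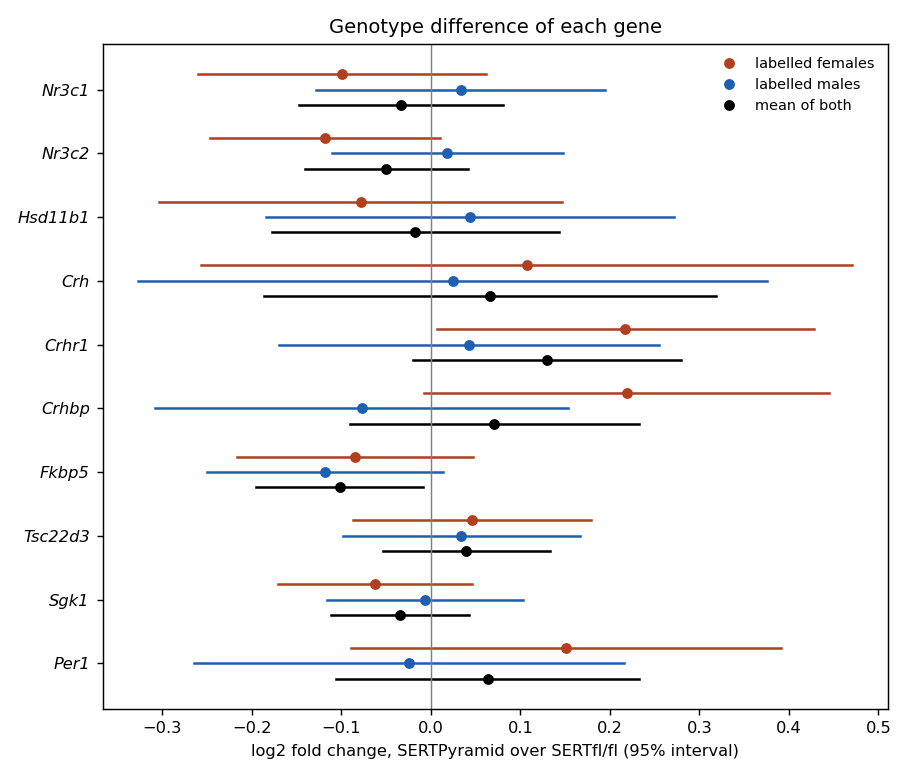
Log2 fold change of SERTPyramid over SERTfl/fl (points) with 95% intervals (lines) for the 10 genes, in labelled females, labelled males and the mean of both, 3 libraries per group. The interval of the mean leaves out 0 only for Fkbp5 (-0.19 to -0.01), and that of labelled females only for Crhr1 (0.01 to 0.43), both before adjustment.

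Within labelled females, edgeR's quasi-likelihood test called 0 of the 10 genes and 0% of all genes after adjustment, while DESeq2 called 1 gene, which was none of these. At an unadjusted p below 0.05 there was 1 of the 10, Crhr1, against 1417 genes or 8.04% of all genes. Fold changes above 1 were found for 5 of the 10 and for 49.9% of all genes. Within labelled males, edgeR and DESeq2 called 0 of the 10 genes and 0% of all genes, and 0 of the 10 had an unadjusted p below 0.05, against 558 genes or 3.16%. There 6 of the 10 had fold changes above 1, as did 50.5% of all genes. The widest 95% intervals reached 0.810-fold for Hsd11b1 and 1.39-fold for Crh in labelled females, and 0.797-fold and 1.30-fold in labelled males, both for Crh. The groups did not overlap in labelled females for 2 of the 10 genes, Nr3c1 and Fkbp5, both lower in SERTPyramid, against 18.9% of all genes. In labelled males this held for 0 of the 10 and 6.93% of all genes, and over all 12 libraries by genotype for 0 of the 10 and 0.187%. The separation of Fkbp5 rests on the scaling between libraries, as its labelled-female groups overlapped in CPM by library total.

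Per length of exon, the mineralocorticoid receptor gene was the most abundant of the 10. Mean levels over the 12 libraries were 20.6 ± 1.32 RPKM for Nr3c2, 17.4 ± 1.72 for Per1, 9.94 ± 0.445 for Sgk1 and 8.88 ± 0.988 for Crhr1 (SD, n = 12). Nr3c1, Tsc22d3 and Crhbp followed at 6.98 ± 0.502, 6.94 ± 0.339 and 6.63 ± 0.807 RPKM and did not differ from each other beyond their spread. Fkbp5 had 3.67 ± 0.211 RPKM, and Hsd11b1 and Crh, at 2.08 ± 0.175 and 1.97 ± 0.255 RPKM, again lay within each other's spread. The ranges of Nr3c2 and Per1 overlapped as well, though Nr3c2 was the higher within every library. Those of Sgk1 and Crhr1 also overlapped, and their order changed between libraries. In SERTPyramid replicate 3 labelled female Crhr1 had 11.0 RPKM and Sgk1 9.76 RPKM. Nr3c2 stood above 86.3% of the tested genes in level and Crh above 37.2%.

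**Figure D2:**
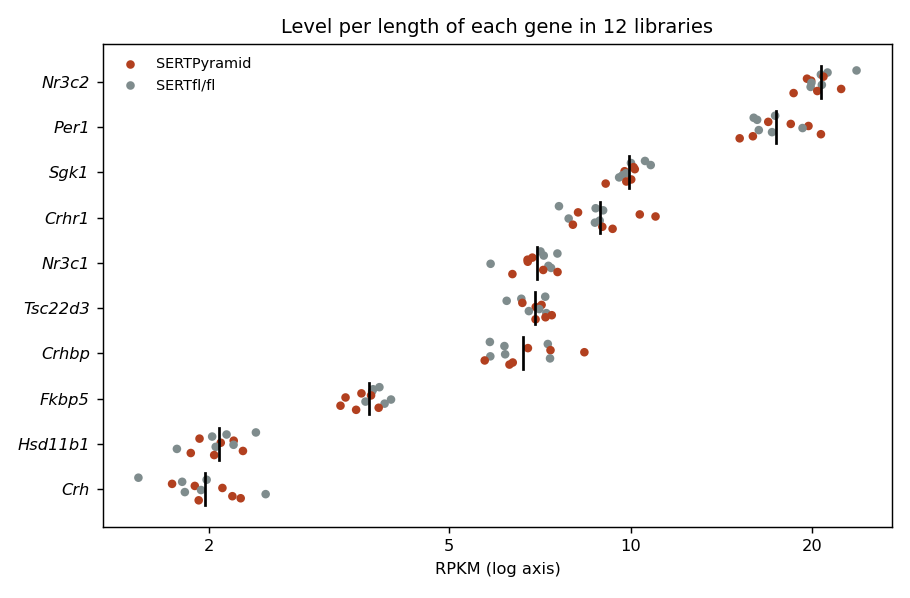
Level of each gene in RPKM (log axis) in the 12 libraries, SERTPyramid in red and SERTfl/fl in grey, with the mean as a black line. Genes run from Nr3c2 (mean 20.6 RPKM) to Crh (1.97 RPKM), and points of both genotypes mix within every gene.

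The genes differed in how steady they were. The coefficient of variation over the 12 libraries was 4.48% for Sgk1 and 4.89% for Tsc22d3, against medians of 5.16% and 5.83% for the 500 genes nearest to each in level. It was 9.89% for Per1, 11.1% for Crhr1 and 12.2% for Crhbp, against 4.67%, 6.51% and 8.24% for genes of like level. Crh varied by 13.0%, and counting error alone gives 12.9% at its 46 to 78 counts per library, so its libraries could not be told apart beyond that error.

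Nr3c2 (ENSMUSG00000031618, chr8:76899442-77245012, plus strand, GRCm38) encodes the mineralocorticoid receptor. It had 135, 127 and 129 CPM in SERTPyramid libraries labelled female, against 153, 137 and 134 CPM in SERTfl/fl libraries labelled female. Libraries labelled male had 144, 132 and 120.5 CPM in SERTPyramid and 129, 134 and 129 CPM in SERTfl/fl. The highest value was SERTfl/fl replicate 1 labelled female, and the genotypes overlapped in both labelled sexes. The log2 fold change was -0.12 ± 0.06 (SE) in labelled females, with an adjusted p of 0.656 by edgeR's quasi-likelihood test, 0.02 ± 0.06 in labelled males and -0.05 ± 0.04 in the mean (adjusted p = 0.826, edgeR). It was -0.05 in labelled females without SERTfl/fl replicate 1 of both labelled sexes. Of the exon bases of Nr3c2, 3.82% are shared with a gene on the opposite strand, Gm10649, which a kit that does not mark strand cannot separate.

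Nr3c1 (ENSMUSG00000024431, chr18:39410545-39519421, minus strand) encodes the glucocorticoid receptor. It had 52.7, 51.8 and 51.8 CPM in SERTPyramid and 54.4, 58.0 and 55.1 CPM in SERTfl/fl libraries labelled female. In libraries labelled male the values were 55.0, 58.1 and 48.9 CPM in SERTPyramid and 45.0, 56.1 and 56.6 CPM in SERTfl/fl. All 3 SERTPyramid libraries labelled female lay below all 3 SERTfl/fl ones, within a range smaller than that of the libraries labelled male. Labelled females had a log2 fold change of -0.10 ± 0.08 (edgeR adjusted p = 0.783), 0.03 ± 0.08 in labelled males and -0.03 ± 0.05 in the mean. The value in labelled males rests on SERTfl/fl replicate 1, the lowest of the 12 libraries, without which it was -0.06.

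Since both receptors bind the same hormone, the ratio of their levels per length was also taken in each library. Nr3c2 over Nr3c1 was 3.04, 2.91 and 2.95 in SERTPyramid and 3.34, 2.80 and 2.88 in SERTfl/fl libraries labelled female. It was 3.12, 2.70 and 2.93 in SERTPyramid and 3.40, 2.84 and 2.69 in SERTfl/fl libraries labelled male. The mineralocorticoid receptor transcript was thus the more abundant in every library, and the genotypes overlapped.

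Hsd11b1 (ENSMUSG00000016194, chr1:193221634-193264075, minus strand) encodes the enzyme that regenerates corticosterone from its inactive keto form inside cells. It had 8.19, 9.33 and 8.88 CPM in SERTPyramid against 10.2, 9.08 and 8.59 CPM in SERTfl/fl libraries labelled female, and 9.66, 7.92 and 8.66 CPM in SERTPyramid against 9.32, 8.71 and 7.51 CPM in SERTfl/fl libraries labelled male. The groups overlapped, and the log2 fold change was -0.08 ± 0.11 in labelled females, 0.04 ± 0.11 in labelled males and -0.02 ± 0.08 in the mean, the last with a 95% interval of 0.884-fold to 1.10-fold. Hsd11b2, whose product inactivates corticosterone, had 2 to 6 counts per library and was not tested. The other genes of steroid metabolism and transport were called in 0 of 8 tested of 12 listed, with 4 above 0 and 4 below and a median of -0.01, against -0.00 over all genes. The adrenal steroid synthesis genes Cyp11b1, Cyp11b2 and Cyp21a1 had 2, 1 and 2 counts in all 12 libraries together. The smallest p values of this list belonged to Akr1c18, a progesterone-reducing enzyme, at -0.18 ± 0.14, and Tspo, a mitochondrial membrane protein, at 0.13 ± 0.16 on the log2 scale, with edgeR adjusted p of 0.810 and 0.892.

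Crh (ENSMUSG00000049796, chr3:19693401-19695396, minus strand) encodes CRH itself. It had 2.29, 2.50 and 2.77 CPM in SERTPyramid against 2.01, 2.61 and 2.38 CPM in SERTfl/fl libraries labelled female, and 2.88, 2.98 and 2.53 CPM in SERTPyramid against 2.56, 2.40 and 3.27 CPM in SERTfl/fl libraries labelled male. These levels were above the 0.118 to 0.160 CPM that a count of 0 would allow, and the groups overlapped. Its log2 fold change was 0.11 ± 0.17 in labelled females, 0.02 ± 0.17 in labelled males and 0.07 ± 0.12 in the mean. The 95% interval of the mean was 0.879-fold to 1.25-fold, so changes within that range are not excluded. The interval is not a detection limit, and the smallest change that would be called was not computed.

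Crhr1 (ENSMUSG00000018634, chr11:104132855-104175523, plus strand) encodes the main CRH receptor of the forebrain. It had 20.1, 25.4 and 27.0 CPM in SERTPyramid against 18.7, 21.5 and 22.1 CPM in SERTfl/fl libraries labelled female. Libraries labelled male had 19.7, 22.1 and 22.9 CPM in SERTPyramid and 19.4, 21.8 and 21.4 CPM in SERTfl/fl. SERTPyramid replicates 2 and 3 labelled female were the highest of the 12 libraries, and replicate 1 lay within the SERTfl/fl range. The log2 fold change was 0.22 ± 0.10 in labelled females, higher in 2 of 3 SERTPyramid libraries than in any SERTfl/fl one, with an unadjusted p of 0.0441 and an adjusted p of 0.607 by edgeR's quasi-likelihood test. It was 0.04 ± 0.10 in labelled males and 0.13 ± 0.07 in the mean (edgeR adjusted p = 0.759). Without SERTfl/fl replicate 1 of both labelled sexes the values were 0.15 in labelled females and 0.07 in the mean.

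Crhbp (ENSMUSG00000021680, chr13:95431371-95444924, minus strand) encodes the secreted protein that binds CRH and limits its action. It had 12.1, 13.2 and 15.1 CPM in SERTPyramid against 10.5, 13.1 and 11.1 CPM in SERTfl/fl libraries labelled female. In libraries labelled male it had 10.3, 11.5 and 11.3 CPM in SERTPyramid and 11.1, 10.5 and 13.2 CPM in SERTfl/fl. Labelled females had a log2 fold change of 0.22 ± 0.11 (edgeR unadjusted p = 0.0571, adjusted p = 0.638), -0.08 ± 0.11 in labelled males and 0.07 ± 0.08 in the mean. The value in labelled females was 0.16 without SERTfl/fl replicate 1 of both labelled sexes.

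**Figure D3:**
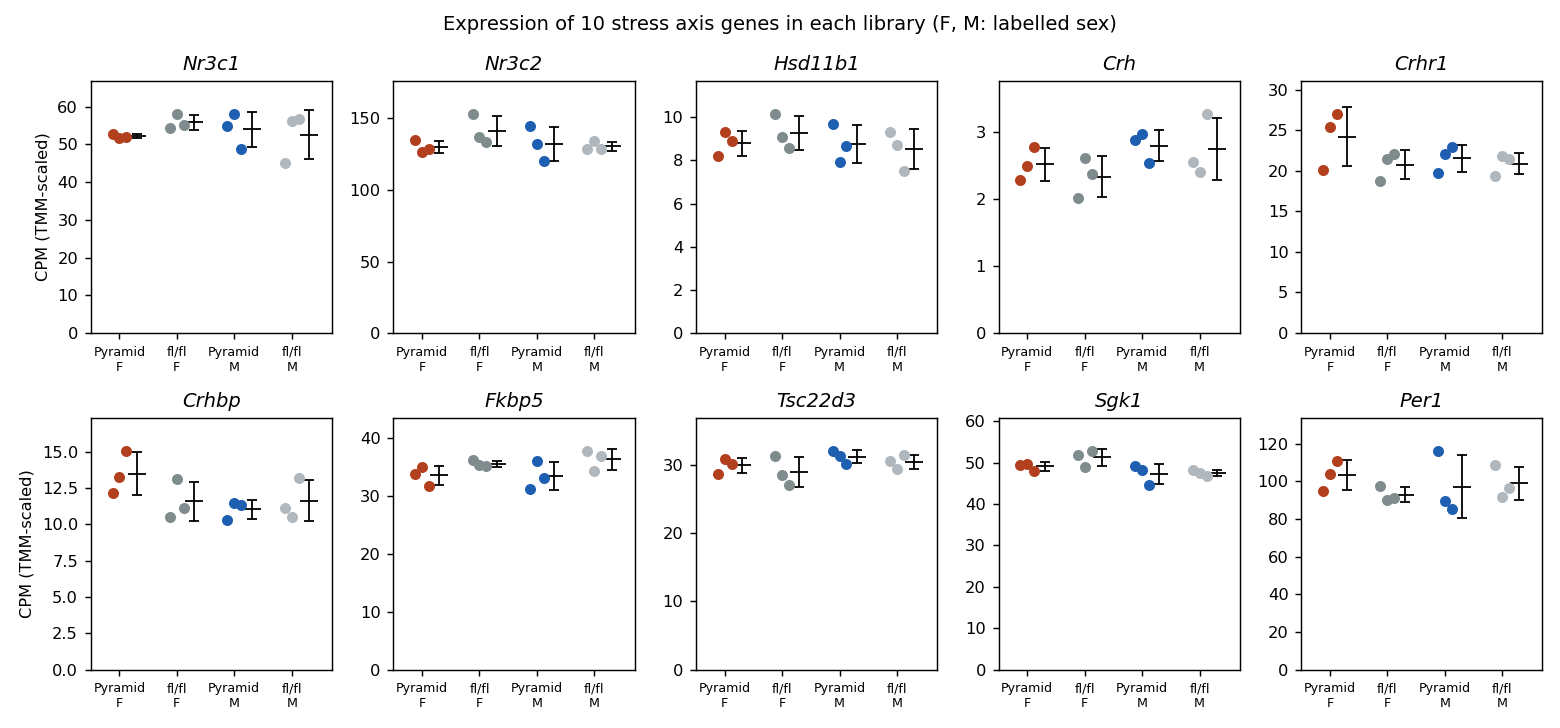
Expression of each gene in CPM scaled by the trimmed mean of M values (TMM), 1 point per library, with the mean and SD of the 3 libraries of each group beside them. F and M are the labelled sexes. SERTPyramid and SERTfl/fl points overlap in all panels except labelled-female Nr3c1 (51.8 to 52.7 against 54.4 to 58.0 CPM) and labelled-female Fkbp5 (31.8 to 35.1 against 35.3 to 36.2 CPM). The gap for Fkbp5 is absent without TMM scaling.

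Other stress peptides and their receptors were mostly scarce. Among the exceptions were the receptor genes Adcyap1r1, at 55.7 RPKM, and Avpr1a, at 5.89 RPKM. Of 15 listed genes, 8 were tested and 0 were called. In the mean of labelled sexes 2 were above 0 and 6 below, where 49.3% of all genes were above 0. In labelled females 6 were above 0 and 2 below, with a median of 0.05, against 49.9% of all genes above 0. In labelled males 1 was above and 7 below, with a median of -0.11, against 50.5% of all genes above 0. The genotype difference in labelled females minus that in labelled males was above 0 for 8 of 8, against 51% of all genes. Its median was 0.19 and 0 were called for it, with 1 at an unadjusted p below 0.05, against 4.45% of all genes. The urocortin genes Ucn, Ucn2 and Ucn3, which encode further CRH receptor ligands, had 5, 16 and 3 counts over all libraries, and Mc2r, the receptor of the pituitary hormone ACTH, had 22. The smallest p values belonged to Adcyap1, which encodes the peptide PACAP, at -0.24 ± 0.18, and Crhr2, the other CRH receptor, at -0.16 ± 0.19 on the log2 scale, with edgeR adjusted p of 0.810 and 0.887.

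The 4 responsive genes are known targets of the activated glucocorticoid receptor, so the promoter windows of the 10 genes were read for its element. The RefSeq windows of GRCm38.p6 run from 250 bases before to 50 after an annotated start, and 8 of the 10 genes had 16 of the 32851 windows. The full element searched was AGAACA, a gap of 3 bases, and TGTTCT, which reads the same on both strands. A single arm of it, AGAACA, the core TGACG of the cAMP element, and the E-box CACGTG, which clock proteins bind, were searched on both strands. The full element stood in 3 windows, or 0.00913% of all, and 1 of these is a window of Sgk1. The single arm stood in 4 of the 16 windows and 19.0% of all, TGACG in 5 of 16 and 20.8%, and the E-box in 3 of 16 and 7.15%. These windows belonged to 2, 4 and 3 genes in that order, Sgk1 alone had 6 of the 16, and its full-element window counts among the single arms. In 13 of the 16 windows the bases after the start matched an annotated transcript of the gene. One window of each responsive gene is printed, the one with the most letters matched, with matches in capitals. In the Sgk1 window (chr10:21993640-21993939, plus strand) an E-box overlaps a single arm near the 5′ end, and the full element, which holds 2 arms, follows at positions -189 to -175 from the start site. The Per1 window is chr11:69098699-69098998 on the plus strand, the Fkbp5 window chr17:28486100-28486399 on the minus strand, and the Tsc22d3 window chrX:140600473-140600772 on the minus strand.
Sgk1: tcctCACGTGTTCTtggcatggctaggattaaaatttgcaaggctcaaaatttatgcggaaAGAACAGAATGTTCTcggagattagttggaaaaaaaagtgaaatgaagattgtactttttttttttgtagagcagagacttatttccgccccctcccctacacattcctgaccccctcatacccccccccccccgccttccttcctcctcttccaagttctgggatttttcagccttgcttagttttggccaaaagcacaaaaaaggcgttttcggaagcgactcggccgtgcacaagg
Per1: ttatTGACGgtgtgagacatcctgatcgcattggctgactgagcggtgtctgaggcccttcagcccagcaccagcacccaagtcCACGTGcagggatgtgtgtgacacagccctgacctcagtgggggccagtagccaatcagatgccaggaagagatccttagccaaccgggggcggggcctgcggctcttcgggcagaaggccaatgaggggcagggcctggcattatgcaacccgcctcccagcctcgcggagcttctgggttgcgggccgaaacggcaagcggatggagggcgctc
Fkbp5: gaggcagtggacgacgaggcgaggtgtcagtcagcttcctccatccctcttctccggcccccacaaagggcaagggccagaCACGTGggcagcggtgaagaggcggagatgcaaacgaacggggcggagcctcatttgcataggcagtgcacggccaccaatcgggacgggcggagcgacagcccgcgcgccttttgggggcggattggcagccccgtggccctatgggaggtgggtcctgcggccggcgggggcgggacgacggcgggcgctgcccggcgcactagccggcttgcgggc
Tsc22d3: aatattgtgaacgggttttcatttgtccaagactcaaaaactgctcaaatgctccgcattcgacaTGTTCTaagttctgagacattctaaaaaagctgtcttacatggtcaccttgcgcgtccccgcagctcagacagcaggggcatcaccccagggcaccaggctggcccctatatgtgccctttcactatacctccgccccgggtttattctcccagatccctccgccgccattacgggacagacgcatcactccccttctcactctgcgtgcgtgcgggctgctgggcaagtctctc
Per1 shows TGACG and an E-box, Fkbp5 an E-box alone, and Tsc22d3 a single arm, read on the other strand as TGTTCT. A match describes letters only, and windows without one say nothing about elements elsewhere, such as within introns.

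**Figure D4:**
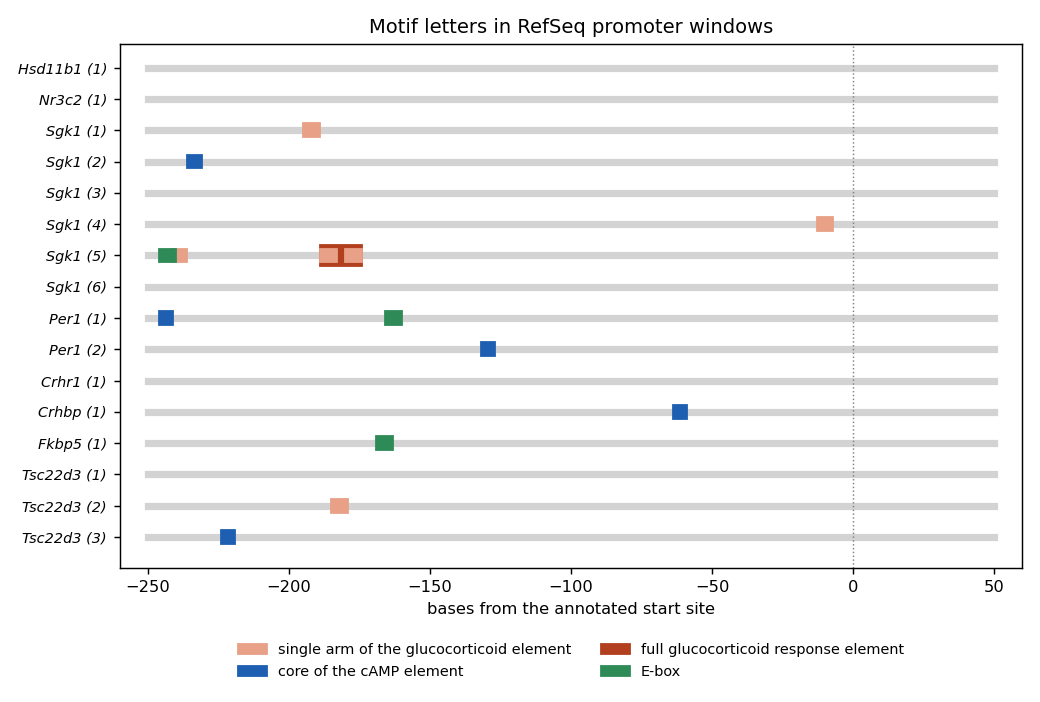
Positions of motif letters in the 16 promoter windows, in bases from the annotated start (dotted line), with the window number of each gene in brackets. The full glucocorticoid response element appears in 1 window, of Sgk1, at positions -189 to -175.

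Fkbp5 (ENSMUSG00000024222, chr17:28399094-28517527, minus strand) encodes the co-chaperone that lowers the receptor's affinity for hormone. It had 33.8, 35.1 and 31.8 CPM in SERTPyramid against 36.2, 35.4 and 35.3 CPM in SERTfl/fl libraries labelled female. Libraries labelled male had 31.2, 36.1 and 33.2 CPM in SERTPyramid and 37.9, 34.4 and 37.0 CPM in SERTfl/fl. In these TMM-scaled values SERTPyramid was below SERTfl/fl without overlap in labelled females and with overlap in labelled males. Without TMM scaling the labelled-female groups overlapped too, with 35.4 CPM in SERTPyramid replicate 2 against 35.1 CPM in SERTfl/fl replicates 2 and 3. The log2 fold change was -0.09 ± 0.06 in labelled females, -0.12 ± 0.06 in labelled males and -0.10 ± 0.04 in the mean. The mean had an unadjusted p of 0.0345 and an adjusted p of 0.756 by edgeR's quasi-likelihood test, and its 95% interval was 0.874-fold to 0.994-fold. It was -0.08 without SERTfl/fl replicate 1 of both labelled sexes.

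Sgk1 (ENSMUSG00000019970, chr10:21882184-21999903, plus strand), a kinase gene that acts on ion channels, had 49.5, 49.8 and 47.9 CPM in SERTPyramid against 51.7, 49.0 and 52.9 CPM in SERTfl/fl libraries labelled female. It had 49.1, 48.2 and 44.5 CPM in SERTPyramid and 48.1, 47.5 and 46.9 CPM in SERTfl/fl libraries labelled male. These values gave log2 fold changes of -0.06 ± 0.05 in labelled females, -0.01 ± 0.05 in labelled males and -0.03 ± 0.04 in the mean. Tsc22d3 (ENSMUSG00000031431, chrX:140539528-140600659, minus strand), which encodes the glucocorticoid-induced leucine zipper protein, had 28.7, 30.9 and 30.2 CPM in SERTPyramid against 31.3, 28.6 and 27.0 CPM in SERTfl/fl libraries labelled female. Its libraries labelled male had 32.1, 31.3 and 30.2 CPM in SERTPyramid and 30.6, 29.4 and 31.4 CPM in SERTfl/fl. The log2 fold change was 0.05 ± 0.06 in labelled females, 0.03 ± 0.06 in labelled males and 0.04 ± 0.04 in the mean. Both genes overlapped between genotypes in each labelled sex.

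Per1 (ENSMUSG00000020893, chr11:69095217-69109960, plus strand), a clock gene that also responds to glucocorticoids and to neuronal activity, had 95.1, 104 and 111 CPM in SERTPyramid against 97.7, 90.0 and 91.2 CPM in SERTfl/fl libraries labelled female. In libraries labelled male it had 116, 89.7 and 85.3 CPM in SERTPyramid and 108, 91.8 and 96.5 CPM in SERTfl/fl. Replicate 1 was the highest of its group in both groups labelled male, and the genotypes overlapped. Its log2 fold change was 0.15 ± 0.11 in labelled females, -0.02 ± 0.11 in labelled males and 0.06 ± 0.08 in the mean. A fit of only the 6 libraries labelled female called 2.43% of 17108 genes and 0 of the 10 genes by edgeR's quasi-likelihood test. Per1 then had the smallest p of the 10, 0.0082 unadjusted and 0.149 adjusted, followed by Nr3c2 at 0.0219 and 0.247 in the same edgeR fit. At an unadjusted p below 0.05 that fit held 4 of the 10 genes, with Crhbp and Nr3c1 the others, and 2385 of its 17108 genes. By Xist its SERTfl/fl libraries were mixed in sex, while its SERTPyramid libraries were not.

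Over the 12 libraries, 0 of the 6 pairs among the 4 responsive genes passed a test of correlation. Across these pairs Pearson's r of log2 CPM ran from -0.35 for Tsc22d3 and Sgk1 to 0.47 for Tsc22d3 and Per1. By permutation test the lowest Benjamini-Hochberg adjusted p over the 6 pairs was 0.670. For Tsc22d3 and Per1, Spearman's rho was 0.469, and r was 0.54 for deviations from group means. It was 0.36 without the 2 farthest libraries, those farthest from the median of the first-named gene of a pair. Among all 45 pairs of the 10 genes, a family added after the data were seen, the highest r was 0.716 for Crhr1 and Crhbp (permutation p = 0.00898, adjusted p = 0.404, n = 12). Spearman's rho was 0.573 for that pair, and r was 0.311 without the 2 farthest libraries. Leaving these out narrows the range of Crhr1, so the drop cannot show whether the relation rests on them. For deviations from group means, Crh and Crhbp had r = 0.835 and rho = 0.804, with adjusted permutation p of 0.0508 and 0.114 and r = 0.750 without the 2 farthest libraries. The same pair had r = 0.375 over the libraries without that centring. Deviations sum to 0 within each group and so are not independent, which makes their permutation p-values likely too small. Crh also varied by 13.0%, against 12.9% from counting error alone, and whether its correlation with Crhbp exceeds that error was not tested.

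The genotype difference was also compared between labelled sexes, as the difference in labelled females minus that in labelled males. edgeR's quasi-likelihood test called 0 of the 10 genes and 0% of all genes, and DESeq2 called 1 gene, none of these. At an unadjusted p below 0.05 there were 0 of the 10 genes, against 785 genes or 4.45%. Differences above 0 were found for 6 of the 10 and for 51% of all genes. The smallest p belonged to Crhbp, at 0.30 ± 0.15 on the log2 scale (edgeR unadjusted p = 0.0704, adjusted p = 0.999), and without SERTfl/fl replicate 1 of both labelled sexes it was 0.26. Crhr1 stood at 0.17 ± 0.14, Nr3c2 at -0.14 ± 0.09 and Fkbp5 at 0.03 ± 0.09. Of the cell type markers, 0 of 6 dentate granule, 0 of 9 choroid plexus and 0 of 5 red blood cell genes were called in this comparison. All of them lay below 0, with medians of -0.31, -0.51 and -0.37, and 4, 0 and 2 had an unadjusted p below 0.05. The 4 CA2 genes also lay below 0, with a median of -0.09. GABAergic interneuron genes went the other way, with 5 of 6 above 0 and a median of 0.11. In both lists 0 were called. The other marker lists with more than 1 tested gene had genes on either side of 0. The summed level of the dentate granule genes was 279 to 312 CPM in SERTPyramid against 311 to 381 CPM in SERTfl/fl libraries labelled female, and 308 to 343 CPM in SERTPyramid against 285 to 327 CPM in SERTfl/fl libraries labelled male. That of the red blood cell genes was 43.8 to 53.5 CPM in SERTPyramid against 58.0 to 67.1 CPM in SERTfl/fl libraries labelled female, and 46.9 to 69.2 CPM in SERTPyramid against 50.6 to 56.7 CPM in SERTfl/fl libraries labelled male. The part of these cell types in the values of the stress axis genes was not tested.

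Between labelled sexes, as labelled male over labelled female averaged over genotypes, edgeR's quasi-likelihood test called 0 of the 10 genes and 0% of all genes. By Xist and Y-linked RNA most labels were reversed and the SERTfl/fl groups mixed, so this is no comparison of male with female mice. DESeq2 called 19 genes, none of them among the 10. At an unadjusted p below 0.05 there was 1 of the 10 genes, Sgk1, against 1589 genes or 9.01%. Differences above 0 held for 4 of the 10 and 48.7% of all genes, and the groups did not overlap for 0 of the 10 and 0.505% of all genes. Sgk1 averaged 47.3 ± 2.41 CPM in SERTPyramid and 47.5 ± 0.623 CPM in SERTfl/fl libraries labelled male, against 49.0 ± 1.04 and 51.2 ± 1.97 CPM in those genotypes labelled female (SD, n = 3 each). Its log2 difference was -0.08 ± 0.04 (edgeR unadjusted p = 0.0391, adjusted p = 0.527), and the same without SERTfl/fl replicate 1 of both labelled sexes. Crh stood at 0.19 ± 0.12, Crhbp at -0.14 ± 0.08 and Per1 at 0.00 ± 0.08.

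The other clock genes were set beside Per1 in this comparison. Of 15 other clock genes, 14 had lower levels in libraries labelled male, with a median log2 difference of -0.11 against -0.00 for all genes, and 7 of 15 had an unadjusted p below 0.05, where all genes had 9.01%. None passed adjustment by edgeR's quasi-likelihood test, and the genes named next were chosen after their values were seen. Nr1d1, a repressor of the clock loop, had 32.6, 31.5 and 28.3 CPM in SERTPyramid and 30.7, 29.2 and 31.2 CPM in SERTfl/fl libraries labelled male, against 34.9, 37.1 and 40.9 and 32.9, 35.4 and 37.9 CPM in those genotypes labelled female. Ciart, another clock repressor, had 3.35, 2.93 and 3.51 CPM in SERTPyramid and 3.78, 2.84 and 2.60 CPM in SERTfl/fl libraries labelled male, against 4.54, 3.96 and 4.31 and 4.12, 4.15 and 3.92 CPM in those genotypes labelled female. Labelled sexes did not overlap for these and for Bhlhe40, 3 of 15 clock genes, against 0.505% of all genes. The log2 difference of Nr1d1 was -0.26 ± 0.05 (edgeR adjusted p = 0.227; DESeq2 adjusted p = 0.0354) and that of Ciart -0.40 ± 0.11 (edgeR adjusted p = 0.324; DESeq2 adjusted p = 0.276). Without SERTfl/fl replicate 1 of both labelled sexes they were -0.28 and -0.48. Nr1d1 shares 8.55% of its exon bases with Thra on the opposite strand. Of the choroid plexus markers, 9 of 9 lay above 0 with a median of 0.72, while 0 of 9 were called and 1 had an unadjusted p below 0.05, and their part in the clock gene values was not tested.

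**Figure D5:**
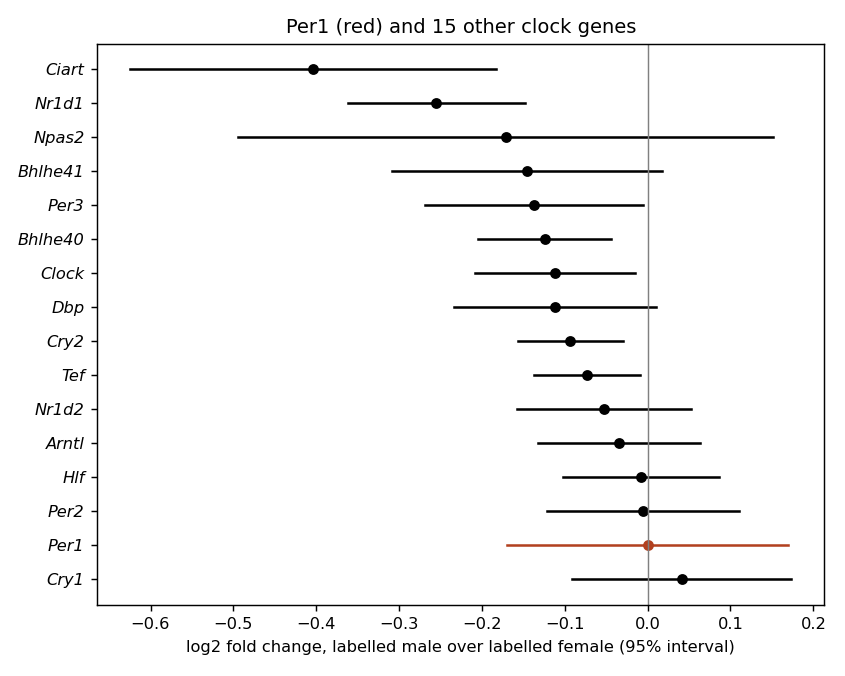
Log2 fold change of labelled male over labelled female, averaged over genotypes, for Per1 (red) and 15 other clock genes (black), with 95% intervals, 6 libraries per labelled sex. Of the others, 14 lie below 0, from Ciart (-0.40) upwards, while Per1 lies at 0.00.

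Genes around the receptors were measured in lists of other pathway members. Of the receptor's chaperones and coregulators, 0 of 17 were called for genotype, with 4 above 0 and 13 below in the mean of labelled sexes and a median of -0.03, against -0.00 for all genes. In that mean 49.3% of all genes were above 0, and 6.49% had an unadjusted p below 0.05. The smallest p values were those of Ncoa1, a coactivator of steroid receptors, at -0.12 ± 0.04, and Bag1, a chaperone cofactor, at -0.06 ± 0.03, with edgeR adjusted p of 0.756 and 0.763. Of 24 other glucocorticoid-responsive genes 21 were tested and 0 were called, with 13 above 0 and 8 below and a median of 0.02. Hif3a, a hypoxia-inducible factor subunit, stood at 0.36 ± 0.13 with an unadjusted p of 0.0126, and Pdk4, a kinase that restrains glucose oxidation, at -0.15 ± 0.08, with edgeR adjusted p of 0.756 and 0.758. For genotype, 0 of the 15 clock genes were called, with 11 above 0, led by Per3 at 0.13 ± 0.06 and Bhlhe41 at 0.13 ± 0.08 (edgeR adjusted p = 0.756 and 0.775). The 9 immediate early genes, which respond to neuronal activity, were all above 0 in the mean, against 49.3% of all genes. Their median was only 0.02, and 0 were called. Of these, Npas4 stood at 0.18 ± 0.08 (unadjusted p = 0.0341) and Fosb at 0.15 ± 0.16, with edgeR adjusted p of 0.756 and 0.877.

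The genes with the most similar pattern over the 12 libraries were sought for 9 of the 10 genes among 12728 expressed genes, by Pearson's r of log2 CPM, as a description. Nr3c2 was most like Ptk2b (r = 0.960), a calcium-activated tyrosine kinase gene, and Grin2a (0.934), an NMDA receptor subunit gene. Nr3c1 was most like the kinase genes Pdpk1 (0.919) and Stk24 (0.912). Crhr1 was most like Kcnn1 (0.921), a potassium channel gene, and Ppp1r16a (0.915), and Crhbp was most like Epha10 (0.892) and Med25 (0.855). Sgk1 had Stxbp5l (0.875) and Zdhhc20 (0.870) nearest, and Tsc22d3 had the zinc finger genes Zfp709 (0.875) and Zfp189 (0.870). Fkbp5 was nearest to Brd3os (0.874) and Vapb (0.865), Hsd11b1 to Scg2 (0.865) and Comtd1 (0.854), and Crh to Slc46a1 (0.843) and Ttc7 (0.841). None of these nearest genes was another of the 10. Each value is the highest or next highest of 12728 correlations over 12 libraries, and the level that unrelated genes reach was not computed. The spread of Crh was near its counting error. The 12 libraries share their depth scaling and tissue dissection.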

How the data were processed

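The authors deposited raw counts of reads per Ensembl gene for all 12 libraries, prepared with the TruSeq RNA Library Prep Kit V2 from 250 ng RNA, per the labels' protocols; that kit keeps no strand information. The genome build is mm10, per the submitters' processing notes. Not given in the sources used here are the aligner, the counting settings and the annotation. The table held 52634 genes, 0 entries without a gene name and 0 columns without a sample, and 52401 identifiers were given symbols, exon lengths and coordinates from GENCODE M21 (GRCm38).

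Groups came from the genotype and sex labels. Genes kept by filterByExpr (17631) were scaled by TMM and tested in 1 fit of 4 groups with edgeR 4.0.16 (quasi-likelihood, R 4.3.3), with Benjamini-Hochberg adjustment over all of them and a threshold of 0.05. Standard errors were derived from the log2 fold change and its F statistic. CPM values are TMM-scaled, RPKM divides them by exon length, and log2 CPM for correlations used a prior count of 2. A count of 0 allows up to 3 counts, or 0.118 to 0.160 CPM, for counting error only. Permutation tests of correlations used 100000 resamples and were two-sided.

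The 10 genes and all lists were chosen with earlier results of these data known. All 10 are described, and of each list the 2 genes with the smallest p in the mean genotype difference were named, along with near-absent defining genes. The genes most like Per1 are not reported here. As alternatives served DESeq2 1.42.0, scaling by RLE, tests without the filter, a replicate block, the libraries of 1 labelled sex alone and leaving out each library. Leaving out SERTfl/fl replicate 1 of both labelled sexes and correlating all 45 pairs were added after the data were seen. Same-numbered libraries were checked for pairing, and pairs of libraries within a group had chi-square values of 2.39 to 12.6 per degree of freedom, so none were duplicates. The tests were tested on simulated data.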

Additional observations from a re-analysis of the deposited data

How the results depend on the processing

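None of the 10 genes was called under any alternative. Counts of called genes, 0 in every comparison by edgeR with the filter, moved without the filter on low counts to 103 in labelled females, 5 in labelled males, 66 in the mean, 14 in the interaction and 194 between labelled sexes. DESeq2 called 1, 0, 0, 1 and 19 in that order, and RLE scaling 0 throughout. The 6 labelled-female libraries alone gave 415 calls. Leaving out 1 library gave 0 to 144 calls in the mean, the highest without SERTPyramid replicate 2 labelled male, and 0 to 73 between labelled sexes, the highest without SERTPyramid replicate 1 labelled male. Without SERTfl/fl replicate 1 of both labelled sexes there were 13 calls between labelled sexes.

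Correlations of deviations between same-numbered libraries ran from -0.225 to 0.234. They were 0.234, 0.0028 and 0.125 between the SERTPyramid groups, and -0.225, -0.142 and -0.121 between the SERTfl/fl groups. Differently numbered libraries were not compared, so this check cannot show whether the numbers mark pairing. The replicate block gave 1 call between labelled sexes and 0 elsewhere and changed no call among the 10 genes.

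Log2 differences near 0 turned sign, and the cause was not tested. Over all alternatives this held for 0 of the 10 genes in labelled females, 8 in labelled males, 4 in the mean, 3 in the interaction and 3 between labelled sexes. Without SERTfl/fl replicate 1 of both labelled sexes, labelled males had -0.061 for Nr3c1, -0.0030 for Crhr1, -0.016 for Crh, 0.0048 for Sgk1 and 0.047 for Per1, and the mean had -0.00096 for Crh and 0.052 for Hsd11b1. Per1 between labelled sexes was -0.0014 with DESeq2, -0.0017 with RLE scaling, -0.0054 with the replicate block and -0.016 without those libraries. With 1 library left out, labelled males ranged from -0.061 to 0.10 for Nr3c1, -0.0037 to 0.11 for Crhr1, -0.15 to 0.030 for Crhbp, -0.17 to 0.062 for Per1, -0.048 to 0.082 for Nr3c2, -0.074 to 0.18 for Crh, -0.033 to 0.035 for Sgk1 and -0.038 to 0.11 for Hsd11b1. Labelled females kept their signs but ranged from 0.00064 to 0.11 for Tsc22d3, 0.014 to 0.20 for Crh and -0.13 to -0.0061 for Hsd11b1. The mean ranged from -0.079 to 0.00062 for Nr3c1, -0.057 to 0.020 for Hsd11b1 and -0.0093 to 0.11 for Per1, the interaction from -0.014 to 0.092 for Fkbp5, and the labelled sex difference from -0.075 to 0.043 for Per1. Over all settings the interaction also ran from -0.068 to 0.17 for Crh and -0.035 to 0.071 for Tsc22d3. The labelled sex difference ran from -0.044 to 0.032 for Nr3c1 and -0.016 to 0.037 for Fkbp5. Nr1d1 was called between labelled sexes by DESeq2 (-0.26), without the filter (-0.26) and without SERTPyramid replicate 1 labelled male (-0.28).

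Correlations turned sign for Fkbp5 and Tsc22d3 (0.211 for deviations, 0.422 without the 2 farthest libraries), Tsc22d3 and Sgk1 (0.137 and 0.172) and Fkbp5 and Per1 (0.633 without the 2 farthest libraries). Depth limits Crh most.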
